A study of Mus musculus with 14 samples.

Results

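The 4 osteosarcomas with the highest level of a hypoxia score were compared with the 4 osteosarcomas with the lowest. The score is the mean of log2(signal + 30) of Adm, Ndrg1, Egln3 and Slc2a1, each read from its brightest probe set, and it was computed in 12 mouse osteosarcomas out of 14 arrays. Osteosarcomas 5, 11, 3 and 1 were the highest 4, osteosarcomas 9, 12, 8 and 10 the lowest 4, and osteosarcomas 4, 7, 2 and 6 lay between them. The groups were thus chosen by the measured signals of these 4 genes and are neither a treatment nor a class given by the labels. All other genes were read from the same arrays as the score, so whatever moves many transcripts together on an array enters both. They compare tumours in which these 4 transcripts were abundant with tumours in which they were not, and oxygen was not measured.

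All tumours came from p53+/- mice, which carry a single intact copy of the p53 tumour suppressor gene. No treatment, age or time is given for any tumour. The other 2 arrays held a tumour labelled rhabdomyosarcoma, also from a p53+/- mouse, and mc3T3, a cultured non-tumorigenic osteoblast line. The free-text description of every tumour repeats that of the cultured line, so tumours were taken by their titles and numbered in accession order. The bone-forming genes Ibsp (30210.3 to 49087 in the 12 osteosarcomas) and Alpl (5833 to 11527) were abundant, against 155 and 54.0 in the tumour labelled rhabdomyosarcoma. Each tumour array holds RNA of whole tissue with all its cell types. Nothing in the labels tells whether each osteosarcoma is from its own animal, so p-values describe the spread among these samples, part of which may be technical. The number of arrays limits the precision.

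Cells short of oxygen stop destroying the HIF transcription factors, which then switch on genes for glucose uptake, glycolysis, pH control, blood vessel growth and collagen maturation. The destruction is started by prolyl hydroxylases of the Egln family and carried out by a ubiquitin ligase that contains Vhl. HIF dimers bind short sites with the core letters ACGTG or GCGTG. Bone tumours are a tissue in which osteoblasts and osteoclasts also use parts of this programme, and HIF activity can be raised without low oxygen.

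The values that formed the groups are given as a description and carry no test. Slc2a1, the glucose transporter GLUT1, had a signal of 8897, 6181, 3502 and 2388 in osteosarcomas 5, 11, 3 and 1. It was 795, 1139.6, 1026 and 663 in osteosarcomas 9, 12, 8 and 10. The hypoxia-induced gene Ndrg1 had 14285.5, 12009, 6592 and 3385 against 2556, 2683, 1027 and 1179. The prolyl hydroxylase gene Egln3 had 1604.5, 1737, 855 and 549.9 against 275, 54.2, 276 and 136.5. Adm, which encodes the vessel peptide adrenomedullin, had 1055, 779.5, 254 and 338 against 117, 168, 92.1 and 72.7. For Adm and Ndrg1 the highest and middle groups overlapped. Osteosarcoma 4, with 378.5 for Adm, lay above osteosarcomas 3 and 1, and osteosarcoma 7, with 3696 for Ndrg1, above osteosarcoma 1.

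**Figure D1:**
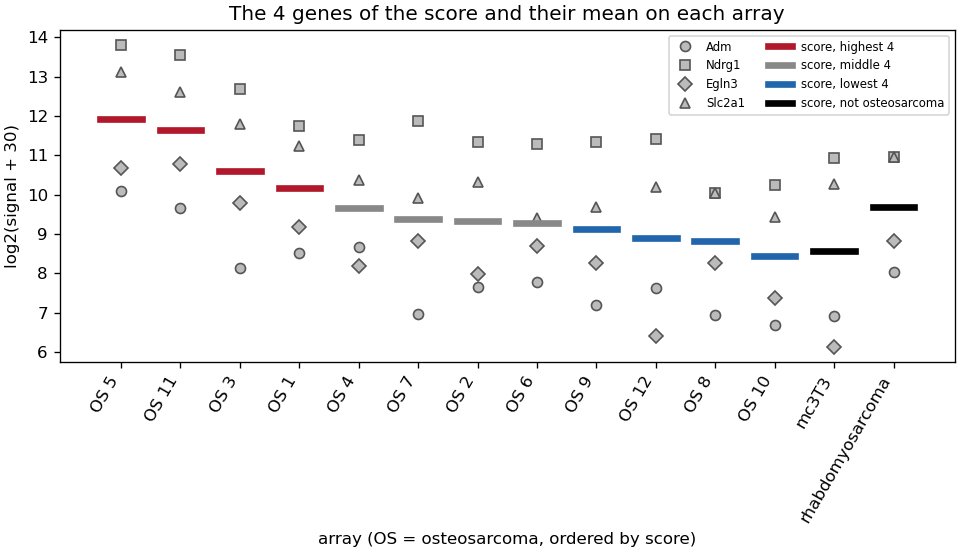
The 4 genes of the score (grey symbols) and their mean (bars) on each of the 14 arrays, in log2(signal + 30), with the osteosarcomas ordered by the score and coloured by group. Osteosarcomas 5 (11.92) and 11 (11.65) stand above all others, and the step from the highest to the middle group (10.17 to 9.66) is wider than that from the middle to the lowest (9.29 to 9.12).

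The score ran from 10.17 to 11.92 in the highest group, from 9.29 to 9.66 in the middle group and from 8.43 to 9.12 in the lowest. Just inside and outside the upper limit stood osteosarcomas 1 (10.17) and 4 (9.66), and at the lower limit osteosarcomas 9 (9.12) and 6 (9.29). The score was 8.56 in mc3T3 and 9.70 in the tumour labelled rhabdomyosarcoma. Leaving Adm, Ndrg1 or Slc2a1 out of the score gave the same groups. Without Egln3, osteosarcoma 6 took the place of osteosarcoma 12 in the lowest group.

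Some features of the arrays and tumours ran with the groups. Beta-actin is read by control probe sets near each end of its transcript, and their ratio (3' over 5') goes up where RNA is broken. It was 1.42 to 1.45 in the highest group and 1.51 to 2.13 in the lowest, with no overlap, while the same ratio of Gapdh overlapped (0.74 to 0.9 against 0.75 to 1.03). All 4 tumours of the lowest group have identifiers starting with m, against 1 of the highest group (osteosarcoma 5), where 2 start with c and 1 with o. The labels do not say what the letters stand for. The median signal was 70.3 to 83.7 in the highest and 67.1 to 110.2 in the lowest group. Skeletal muscle RNA was abundant in osteosarcoma 9 of the lowest and osteosarcoma 6 of the middle group. Fits with these features as terms stand beside the results below.

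The promoters of 4 genes are shown because these genes had the smallest p-values among the HIF target and glycolysis genes with a promoter in the table used. They are the 250 bases before the start site, from RefSeq on build GRCm38.p6, written 5' to 3' on the gene's strand. Capitals mark the letters ACGTG or GCGTG, or their reverse complements CACGT and CACGC, with matches allowed to overlap. Ak4 encodes a mitochondrial adenylate kinase and has 4 start sites in the table, of which the one listed first is shown (chr4:101419039-101419288, plus strand). Slc16a3 encodes the lactate exporter MCT4 (chr11:120948817-120949066, plus strand), Fam162a a mitochondrial protein of the hypoxia response (chr16:36071562-36071811, minus strand) and Tpi1 the glycolytic enzyme triosephosphate isomerase (chr6:124814159-124814408, minus strand).
Ak4: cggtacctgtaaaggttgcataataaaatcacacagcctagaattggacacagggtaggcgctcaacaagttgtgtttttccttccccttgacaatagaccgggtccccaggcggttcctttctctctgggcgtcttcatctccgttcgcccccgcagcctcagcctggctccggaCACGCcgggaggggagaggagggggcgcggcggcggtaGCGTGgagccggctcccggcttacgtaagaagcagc
Slc16a3: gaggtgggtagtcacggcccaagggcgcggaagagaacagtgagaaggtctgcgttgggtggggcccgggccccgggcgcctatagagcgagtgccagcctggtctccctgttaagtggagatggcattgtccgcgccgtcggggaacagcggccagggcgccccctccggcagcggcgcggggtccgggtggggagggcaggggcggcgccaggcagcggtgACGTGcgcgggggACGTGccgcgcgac
Fam162a: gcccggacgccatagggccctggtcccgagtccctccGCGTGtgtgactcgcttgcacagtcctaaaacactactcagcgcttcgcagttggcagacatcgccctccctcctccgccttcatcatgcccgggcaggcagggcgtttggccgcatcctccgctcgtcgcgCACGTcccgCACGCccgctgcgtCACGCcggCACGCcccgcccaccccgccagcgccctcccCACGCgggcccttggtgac
Tpi1: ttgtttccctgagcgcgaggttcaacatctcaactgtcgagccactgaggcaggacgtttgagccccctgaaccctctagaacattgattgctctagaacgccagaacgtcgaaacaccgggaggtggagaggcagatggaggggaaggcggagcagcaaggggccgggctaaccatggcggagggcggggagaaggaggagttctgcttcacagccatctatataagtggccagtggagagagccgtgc

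The Ak4 window held 2 matches, 74 and 36 bases before the start site. The Slc16a3 window held 2 close to the start, at 27 and 14 bases, both in the ACGTG form. The Fam162a window held 6, of which 5 lay within 81 bases of the start. The Tpi1 window held 0, which says only that these letters are not in this window. Over both lists, 57 of 65 tested genes had a window. Either core, ACGTG or GCGTG on either strand, stood in 67.9% of the windows of HIF target genes and in 76.9% of those of glycolysis genes, against 54.7% of the windows of all tested genes, 51.9% for genes higher without overlap and 57.2% for genes lower without overlap. ACGTG or its reverse complement alone stood in 44.6% of the windows of HIF target genes and in 46.2% of those of glycolysis genes, against 21.3% of the windows of all tested genes and 16.6% of all windows in the table. In genes whose highest and lowest groups did not overlap, this ACGTG share was 21.7% for genes higher in the highest group and 21.5% for genes lower in it. These shares describe letters, not bound sites, and the HIF target list was drawn up from genes known to respond to HIF.

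Over the genes other than the 4 of the score, 2 passed the test between the highest and the lowest group, and both were higher in the highest group. They were Moxd1, a copper-dependent monooxygenase of the secretory pathway, and Scara5, a scavenger receptor that takes up ferritin. Moxd1 had a signal of 1388.5, 1983, 650.3 and 1765 in osteosarcomas 5, 11, 3 and 1 and of 62.4, 77.2, 5.6 and 42.9 in osteosarcomas 9, 12, 8 and 10. The groups were far apart, and the middle group (19.7 to 219.6) lay nearer to the lowest. Its mean was 1447 ± 585 (SD, n = 4) against 47.0 ± 31.0, and the difference on the log2(signal + 30) scale was 4.26 ± 0.50 (SE; limma adjusted p = 0.0166). Signals as dim as those of the lowest group were not separated from background here, so the size of the Moxd1 difference depends on the added constant. It was 4.81 with a constant of 10, without a call (limma adjusted p = 0.0665), and 3.32 with 100 (adjusted p = 0.00233). Scara5 had 4060.5, 2784, 1846.5 and 2008 against 376, 198, 179.5 and 360.3. The middle group spanned 267 to 1121, and the cultured line mc3T3 had 8420.3, above all 12 osteosarcomas. The difference of Scara5 was 3.13 ± 0.43 (limma adjusted p = 0.0411), with all 4 tumours of the highest group above all 4 of the lowest.

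Neither call held under every change of setting. With a gene called at an adjusted p under 0.05 and a difference of at least 1, these 2 of 11811 genes are 0.0169% of those tested, and 0 genes (0%) were called lower. At an unadjusted p under 0.05, 462 genes were higher (3.91%) and 523 lower (4.43%). Leaving out osteosarcoma 5, 8, 9, 10 or 11 left 0 genes called higher, leaving out osteosarcoma 3, 6, 7 or 12 left Moxd1, leaving out osteosarcoma 1 gave Fzd1 in place of both, and leaving out osteosarcoma 2 gave 4. With the identifier letter as a block, the Moxd1 difference was 4.35 and missed the threshold (adjusted p = 0.143), while Scara5 passed (3.69, adjusted p = 0.0441). With the beta-actin ratio as a covariate Moxd1 passed (4.93, adjusted p = 0.0118) and Scara5 did not (2.84, adjusted p = 0.267).

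A fit that used the score itself as a covariate over all 12 osteosarcomas called 27 genes higher (0.229% of those tested) and 11 lower (0.0931%) with a rising score, Moxd1 and Scara5 among them. Of these 38 genes, 35 also had highest and lowest groups that did not overlap in the same direction. Over all genes the groups did not overlap in 3.02% (higher) and 3.43% (lower). The fit and the groups use the same score and arrays, so the 35 are no separate support. Members of the HIF target or glycolysis lists, which hold 65 of the 11811 genes tested, made up 9 of the 38. In this fit a difference is the slope multiplied by the distance between the mean scores of the highest and lowest groups. The genes named from it were chosen after their values were seen. Osteosarcomas 5 and 11 carried this fit. Without osteosarcoma 5, and likewise without osteosarcoma 11, 0 of the 38 genes passed, while all 38 kept their direction; leaving out any other tumour kept 14 to 32 of them. A rise or fall on the continuous score below therefore rests on both tumours, and 13 of the 38 genes passed in 10 of the 12 fits that leave out 1 tumour. They were Arg1, Bdkrb1, Bnip3, Cyfip2, Fam162a, Fzd1, Gpnmb, Gpr35, Hilpda, Inhba, Masp1, Moxd1 and Tpi1. Others depended on further tumours as well. Plxdc1 passed in 0 of these fits and Ak4, Als2cl and Atp6v1g2 in 1. Apln, Epas1, Mmp19 and Myo18a passed in 2, and Car9, Slc2a3 and Fndc1 in 3.

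**Figure D2:**
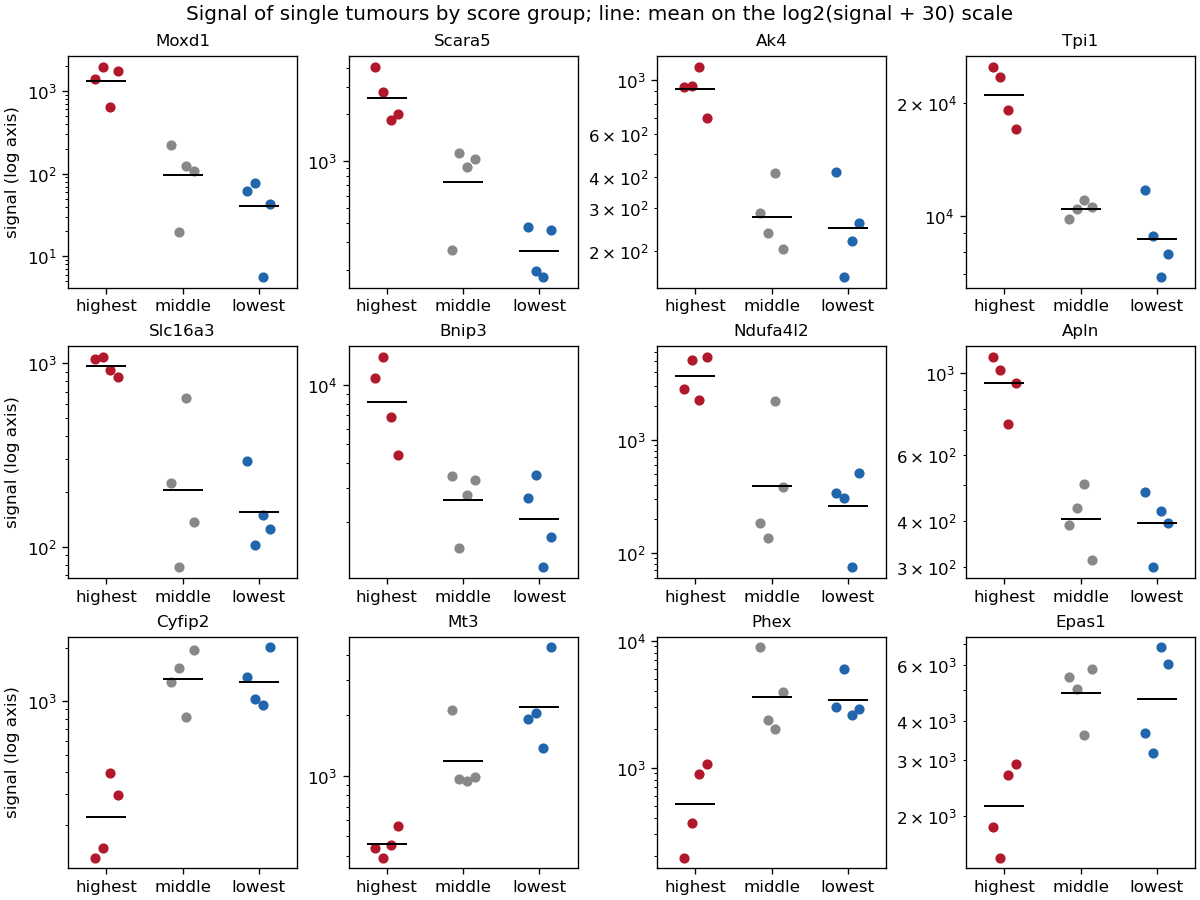
Signal of 12 genes in single tumours of the highest (red), middle (grey) and lowest (blue) score groups, on log axes that differ between panels, with a line at the mean on the log2(signal + 30) scale. In 8 panels the 4 red points lie above the 4 blue points, and in the other 4 (Cyfip2, Mt3, Phex and Epas1) below them; the grey points of most panels lie near the blue ones.

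The HIF target list, genes that HIF is known to switch on, held 50 genes besides those of the score, of which 47 were tested and the other 3 had no named probe set here. The limma test between the groups called 0 of them, with 16 higher and 0 lower at an unadjusted p under 0.05, and the continuous score called 6 higher and 0 lower. The difference was above 0 for 41 of 47 genes (87.2%, against 47.9% of all genes), and the median was 0.63 on the log2 scale against -0.02 over all genes. In 12 genes (25.5%) all 4 tumours of the highest group lay above all 4 of the lowest, against 3.02% of all genes, and in 0 genes below them, against 3.43%. The direction of this list is not independent of the way the groups were made, since the 4 genes of the score are themselves HIF targets.

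Ak4 had 936.5, 947, 1133 and 698.5 in the highest group against 421, 156, 220.1 and 259.8 in the lowest. The lowest value of the first group was well above the highest of the second, and the difference was 1.76 ± 0.29 (adjusted p = 0.0886; on the continuous score 1.59, adjusted p = 0.0454). The lactate exporter Slc16a3 had 1054, 1081, 918 and 839.5 against 292, 103, 150.2 and 125. Its difference of 2.43 ± 0.46 was the highest of the list and passed neither test (adjusted p = 0.148 and 0.0569), and osteosarcoma 2 of the middle group reached 643.

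Bnip3, which marks mitochondria for removal, had 10792, 13902, 6897 and 4392 against 2669, 3482, 1177 and 1679.5. The order of its values followed that of the score only in part, with osteosarcoma 11 above osteosarcoma 5, and it rose on the continuous score by 2.01 (adjusted p = 0.0106; between the groups 1.97 ± 0.42, adjusted p = 0.154). Pdk1, a kinase that keeps pyruvate out of the mitochondrion, had 4145, 5561, 3292 and 2439 against 1218, 1710.2, 1965 and 917. It rose on the continuous score by 1.48 (adjusted p = 0.0283). Fam162a (difference between the groups 1.14 ± 0.24) and the lipid droplet gene Hilpda (1.25 ± 0.32) rose on the continuous score too, by 1.17 and 1.36.

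Car9, the carbonic anhydrase often used to stain hypoxic tumour cells, had 693, 1166, 139 and 238 against 136, 57.0, 154 and 136. Osteosarcomas 5 and 11 were high, and osteosarcomas 3 and 1 lay near the other tumours, so the groups overlapped. Car9 rose on the continuous score (1.94, adjusted p = 0.0492) and missed the threshold between the groups (1.62 ± 0.55, adjusted p = 0.409). Its paralogue Car12 was high in osteosarcoma 11 (4676.5) and had 367 to 954 in the other tumours of the highest group, against 64.0 to 426.5 in the lowest (1.86 ± 0.90).

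Vegfa, the vessel growth factor, was not among the clear differences. It had 1635, 3136, 1611 and 776 against 1081, 938, 592 and 1554, with osteosarcoma 1 below osteosarcomas 9, 12 and 10 (0.68 ± 0.37, adjusted p = 0.672). The collagen prolyl hydroxylase P4ha1 had 8337, 13102, 5714 and 3348 against 4369, 2909, 1267 and 2801 (1.37 ± 0.42), and the collagen crosslinking enzyme Lox 24466, 29145, 24466 and 21016 against 18166, 30413, 9803 and 17509.9 (0.49 ± 0.38). Groups overlapped for both. The mTOR inhibitor Ddit4 overlapped as well, with 3272 to 10007 against 2578 to 5695. The other genes of the list without overlap were Ankrd37 (1.85 ± 0.49), Il6 (1.85 ± 0.46), the glycolysis activator Pfkfb3 (1.35 ± 0.33), the haem-degrading enzyme Hmox1 (1.17 ± 0.23), the placental growth factor Pgf (0.76 ± 0.27) and the cytokine Mif (0.68 ± 0.26). The 6 genes with a difference below 0 ran from Plod2 (-0.45 ± 0.48) to Stc2 (-0.14 ± 0.53).

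Of the glycolysis list, 18 of 21 genes were tested. The limma test between the groups called 0, with 9 higher and 0 lower at an unadjusted p under 0.05, and the continuous score called 3 higher. The difference was above 0 for 17 of them (94.4%, against 47.9% of all genes), the median was 0.66, and 5 genes (27.8%, against 3.02% of all genes) were higher without overlap. As for the HIF target list, this direction is not independent of the way the groups were made, since HIF also switches on glycolysis genes. Tpi1 had 24932, 23407, 19165 and 17014 in the highest group against 11721, 8865.5, 6875 and 7939 in the lowest. Its values were even within each group, and it rose on the continuous score by 1.19 (adjusted p = 0.0106; between the groups 1.26 ± 0.21, adjusted p = 0.0886). Phosphoglycerate mutase, Pgam1, had 14327, 11339, 8874 and 9328 against 5520.0, 5882, 4990.1 and 4397. It rose by 1.12 on the continuous score (adjusted p = 0.0275).

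Pgk1, phosphoglycerate kinase, had 31709, 29599, 22560.5 and 21659 against 12046, 15328, 15416 and 11212, and its difference of 0.96 ± 0.22 stood just under 1. Hk2, the first enzyme of the pathway, had 3517, 2121, 1999 and 1542 against 1429, 820.4, 771 and 786, and lactate dehydrogenase Ldha 27285.5, 28748, 21791 and 20346 against 20175.5, 19033, 11085 and 17480.3, narrowly without overlap (0.56 ± 0.24). Aldoa, aldolase A, overlapped widely, with 14923 to 20364 against 8993 to 18797, and was highest of all 12 in the muscle-rich osteosarcoma 6 (32774). Slc2a3, the glucose transporter GLUT3, rose on the continuous score (1.59, adjusted p = 0.0492) through osteosarcomas 5 and 11 (4416 and 3527.5), while osteosarcoma 3 (1079.6) lay within the range of the lowest group (485 to 1492) and osteosarcoma 1 (1686) just above it. Ldhb (-0.13 ± 0.37) was the member with a difference below 0.

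**Figure D3:**
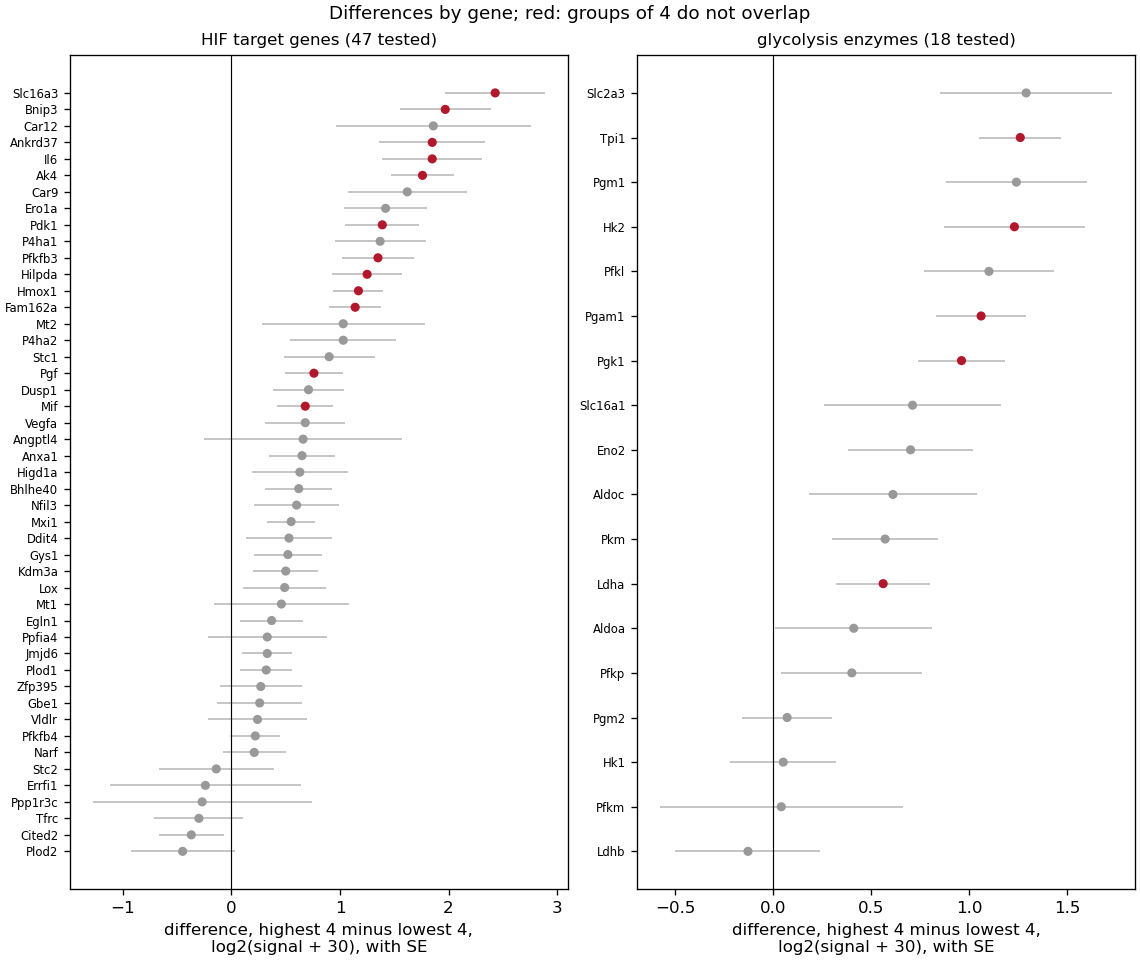
Difference between the highest and lowest groups for each tested HIF target and glycolysis gene, in log2(signal + 30), with its standard error; red points mark genes whose 2 groups of 4 do not overlap. Of 47 HIF target genes 41 lie right of 0 and 12 are red, and of 18 glycolysis genes 17 lie right of 0 and 5 are red.

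The mean level of the HIF target list was 10.45 to 11.24 in the highest group, 9.84 to 10.31 in the middle and 9.99 to 10.33 in the lowest, in log2(signal + 30). The highest group lay above both others, and the middle and lowest groups had the same mean (10.14). The glycolysis list had 11.40 to 12.05, 10.66 to 11.26 and 10.74 to 11.37, and here osteosarcoma 9 of the lowest group (11.37) came close to osteosarcoma 1 (11.40). Within the highest group the tumours were unequal. The highest value of the 12 tumours was in osteosarcoma 5 or 11 for 29 of 47 HIF target genes (61.7%) and 15 of 18 glycolysis genes (83.3%), against 14.1% of all genes.

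Fits with the features that run with the groups are given as values only. All 4 tumours of the lowest group start with m, and the beta-actin ratios of the highest and lowest groups do not overlap. Such fits cannot fully separate these features from the score, and the part of the features was not tested. With the beta-actin ratio as a covariate the median was 0.89 for HIF target and 0.75 for glycolysis genes, and with the identifier letter as a block it was 0.83 and 0.87. With the muscle level as a covariate it was 0.63 and 0.74. Within the tumours whose identifier starts with m, osteosarcoma 5 lay above all 4 tumours of the lowest group in 32 of 47 HIF target genes (68.1%) and 13 of 18 glycolysis genes (72.2%), against 21.5% of all genes. That comparison rests on 1 tumour, the one with the highest score.

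The machinery that senses oxygen did not follow the score as a list. Of 15 tested genes, limma called 0 between the groups (0 higher and 1 lower at an unadjusted p under 0.05), the median was -0.04, and 6 had a difference above 0. Hif1a, the HIF subunit found in most cells, had 7959, 6365, 6635 and 6500.3 against 4452, 6927, 5396 and 4682. The groups overlapped, since osteosarcoma 12 exceeded 3 of the 4 tumours of the highest group (0.37 ± 0.24, adjusted p = 0.728). HIF activity is set mainly by protein stability, which an array does not read. Epas1, the HIF subunit HIF-2 alpha that is abundant in endothelium, had 1845, 1469, 2699 and 2915 against 3665.5, 3153, 6844 and 6073. All 4 values of the highest group were below all 4 of the lowest, and Epas1 fell on the continuous score (by 1.22, adjusted p = 0.0495; between the groups -1.11 ± 0.31, adjusted p = 0.276). Vhl (-0.05 ± 0.26), Hif1an (-0.04 ± 0.22) and Egln1 (0.37 ± 0.29) stood near 0 or within the overlap of the groups.

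Of 31 respiratory chain genes tested, limma called 0 in either fit (between the groups 1 higher and 0 lower at an unadjusted p under 0.05), 4 had a difference above 0 and the median was -0.17. Single differences were small, down to -0.54 ± 0.33 for the succinate dehydrogenase subunit Sdha. The median was -0.27 without osteosarcoma 9, -0.10 without osteosarcoma 12 and 0.075 with the beta-actin ratio as a covariate. Of the 4 genes above 0 the farthest was Cox4i2, the cytochrome oxidase subunit that replaces Cox4i1 in low oxygen, with 222, 304, 468 and 313 against 256, 113, 29.3 and 172 (1.22 ± 0.42, adjusted p = 0.417), where osteosarcomas 5 and 9 overlapped. Ndufa4l2, a mitochondrial protein induced by HIF and not in the list, had 2862, 5142, 2262 and 5463 against 337, 305, 74.1 and 505.5. Its groups were separate by several-fold, with 3.69 ± 0.73 (adjusted p = 0.154), but osteosarcoma 2 of the middle group reached 2207.

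Vessel genes ran in both directions. Of 24 angiogenic ligands and receptors tested, 10 had a difference above 0, the median was -0.12 (-0.19 without osteosarcoma 12 and -0.01 without osteosarcoma 10), and 1 gene was called higher on the continuous score. That gene was Apln, the peptide apelin of sprouting vessel tips, with 1105, 1016.5, 729 and 941 against 479, 299, 423 and 393. Each group was narrow, and Apln rose by 1.12 on the continuous score (adjusted p = 0.0442; between the groups 1.19 ± 0.22, adjusted p = 0.136). Its receptor gene Aplnr had 1598, 2509.6, 2382 and 4306 against 5750.0, 1206.5, 11073 and 9907, with osteosarcoma 12 the lowest of all (-1.05 ± 0.62). Flt1, a VEGF receptor, had 306, 234, 342 and 253 against 429, 416, 434 and 529 without overlap (-0.63 ± 0.22), and the angiopoietin receptor Tek 145, 188.5, 205 and 316 against 436, 315, 594 and 733 (-1.15 ± 0.34).

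Of 20 endothelial marker genes, 2 had a difference above 0, the median was -0.58 (-0.36 without osteosarcoma 10), limma called 0 (0 higher and 5 lower at an unadjusted p under 0.05), and 2 (10.0%) lay lower without overlap against 3.43% of all genes. The mean level of the endothelial list was 8.84 to 9.36 in the highest and 9.16 to 10.30 in the lowest group, lowest in osteosarcoma 5 and highest in osteosarcoma 10. In whole tumours fewer cells of a type and less RNA per cell cannot be told apart, which holds for every cell type list here. Epas1, Flt1 and Tek are themselves endothelial genes, so their values move with this list, and its part in them was not tested.

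Bone genes differed in an uneven way. Of 18 tested osteoblast and bone matrix genes 9 had a difference above 0 (median -0.02), and 3 (16.7%, against 3.43% of all genes) lay lower without overlap. The median ran from -0.15 to 0.03 with 1 tumour left out. Phex, a peptidase of osteocytes and late osteoblasts that controls phosphate, had 195, 363, 892 and 1066 against 2985, 5948, 2571 and 2892. Each value of the lowest group was above each value of the highest, and Phex fell by 2.72 on the continuous score (adjusted p = 0.0275; between the groups -2.65 ± 0.55, adjusted p = 0.154). Mepe, a matrix protein of osteocytes, pointed the same way with overlap (-2.48 ± 0.71), as osteosarcoma 1 (289) lay above osteosarcoma 8 (216). Omd, the proteoglycan osteomodulin, pointed the other way, with 5501, 7673, 6584 and 1354 against 901.5, 3089.8, 284 and 786 (2.26 ± 0.96).

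Further bone cell genes met the naming rule as lower without passing a test. Vdr, the vitamin D receptor, had 561.5, 532, 863 and 481 against 1418, 1884.5, 2870.1 and 2989, and the middle group (1123 to 3548) resembled the lowest. Its difference was -1.83 ± 0.35 (adjusted p = 0.148). Pth1r, the receptor of parathyroid hormone, had 3851, 3409.6, 4695 and 2694 against 7977, 7977, 10796 and 9602 (-1.32 ± 0.27, adjusted p = 0.154). Gdpd2, a phosphodiesterase of differentiating osteoblasts, had 50.0, 46.2, 35.6 and 254 against 518.5, 949.6, 352.5 and 1087.5 (-2.75 ± 0.58), with osteosarcoma 1 apart from the other 3 of its group. Neither fit called these 3 genes.

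Osteoclast genes had lower values in the highest group, though limma called 0 of them in either fit (between the groups 0 higher and 9 lower at an unadjusted p under 0.05). All 17 tested genes had a difference below 0, with a median of -0.72, and in 9 of them (52.9%) the groups did not overlap, against 3.43% of all genes. Ocstamp, which osteoclast precursors need to fuse, had 1702, 2507 and 1068 in osteosarcomas 5, 11 and 3 and less in osteosarcoma 1, against 3397, 4779.5, 5360.5 and 3622. The other fusion gene Dcstamp had 1767, 2391, 1376 and 574 against 3151.5, 3915, 4099.7 and 4281. Both were lowest in osteosarcoma 1, with differences of -1.62 ± 0.54 and -1.48 ± 0.53 (adjusted p = 0.402 and 0.419). The receptor Oscar (-1.37 ± 0.56), the phosphatase Acp5 (-0.52 ± 0.23), the transcription factor Nfatc1 (-0.35 ± 0.21) and the gelatinase Mmp9 (-0.73 ± 0.22) were lower without overlap too, while the collagen protease Ctsk (-0.14 ± 0.24) and the receptor Tnfrsf11a (-0.21 ± 0.27) overlapped.

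The mean level of the osteoclast list was 10.80 to 11.48 in the highest group and 11.73 to 12.25 in the lowest, with no overlap, but the middle group spanned 10.90 to 12.27, from osteosarcoma 2 to osteosarcoma 4. Its levels did not run in step with the score, and within the highest group it was higher in osteosarcomas 5 and 11 than in 3 and 1. Its median was -0.41 with the beta-actin ratio as a covariate and -0.55 with the identifier letter as a block. Cartilage genes went both ways (11 tested, 5 above 0, median -0.01), and 2 (18.2%, against 3.43% of all genes) were lower without overlap. The cartilage median was -0.30 without osteosarcoma 10, 0.10 without osteosarcoma 11 and -0.65 for 5 tumours against 5. The 2 genes were Comp, a cartilage matrix protein (-1.70 ± 0.84), and Col2a1, the main cartilage collagen. Col2a1 had 70.5, 287, 281 and 184 against 2328, 5251.5, 2611 and 3487, a difference of -3.93 ± 0.84 (adjusted p = 0.154).

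**Figure D4:**
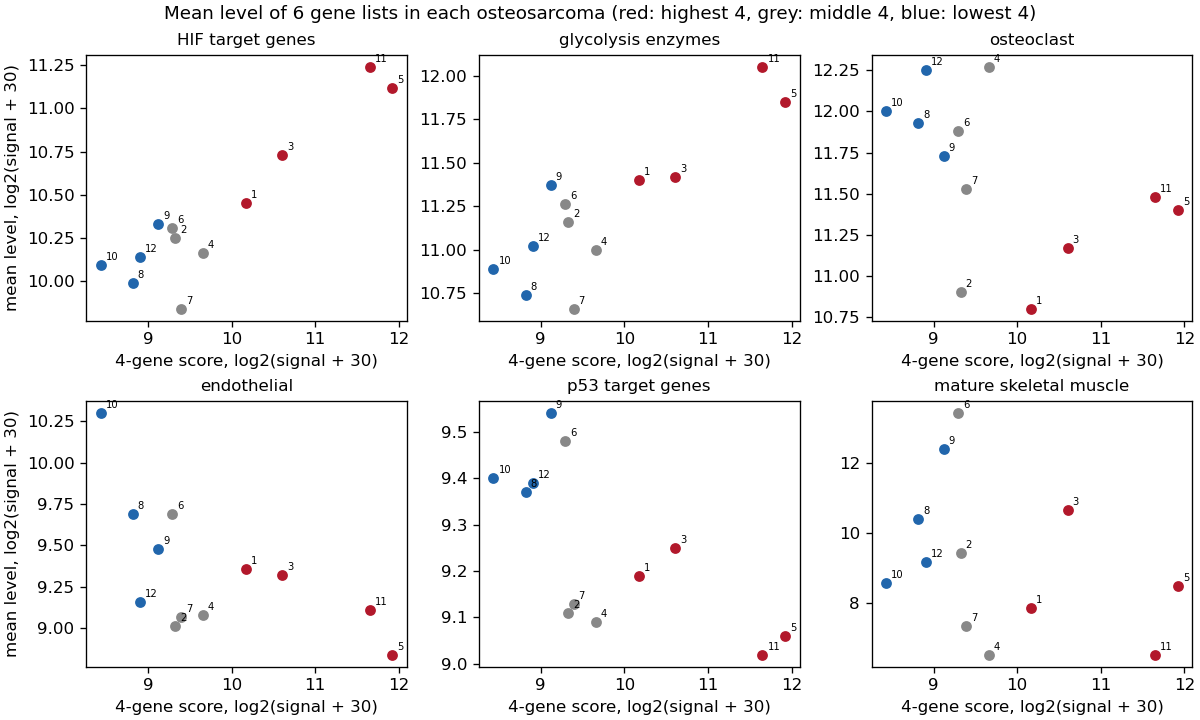
Mean level of 6 gene lists in each osteosarcoma, in log2(signal + 30), against the 4-gene score, with the tumour's number beside each point (red: highest 4, grey: middle 4, blue: lowest 4). HIF target and glycolysis levels are highest in osteosarcomas 5 and 11, the osteoclast and p53 target levels of the red tumours lie below those of the blue ones, and the muscle level is highest in osteosarcomas 6 and 9.

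Other genes that rose with the score came from several functions. Inhba, the activin A subunit, had 1545, 3634, 877 and 451 in the highest group against 264, 105, 157 and 252 in the lowest, and rose by 2.61 on the continuous score (adjusted p = 0.0106). Fzd1, a Wnt receptor, had 6839.7, 6234, 5098 and 1523 against 1418, 1165, 779 and 931, a rise of 1.97 (adjusted p = 0.0106), with osteosarcoma 1 close to the lowest group. Masp1, a protease of the lectin pathway of complement, had 1126, 632, 259.8 and 189.9 against 23.2, 127.5, 24.7 and 32.0 and rose by 2.95 (adjusted p = 0.0106). Gpr35, a receptor of tryptophan metabolites, had 531.5, 532, 182 and 200.4 against 68.6, 19.7, 105 and 61.7 (2.07). The secreted protein Ndnf had 13119.6, 7275, 7479.5 and 4519 against 1430.3, 3066, 983 and 1198 (2.08, adjusted p = 0.0207). A second monocarboxylate transporter gene, Slc16a4, had 1007, 534, 727 and 375 against 141, 109, 35.3 and 156 (2.18, adjusted p = 0.0442).

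Matrix and membrane genes were among the 27 as well. These were Fndc1 (2.99), the metalloproteinase Mmp19 (1.64), Gpnmb (1.75), a glycoprotein of osteoblasts and macrophages, Plxdc1 (1.89), the bradykinin receptor Bdkrb1 (1.28) and the organic anion transporter Slco1a5 (2.01). The mitochondrial protein Mgarp (1.40) and the lysosomal enzyme Gla (1.03) completed them. Ahr, the aryl hydrocarbon receptor, which shares its partner Arnt with HIF, had 1148, 991, 918 and 1612 against 396, 324.5, 566 and 355 without overlap but passed neither test (1.44 ± 0.24, adjusted p = 0.0886). Lrrc15, a membrane protein of stromal and bone tumour cells, had 576, 553, 736 and 434 against 229, 217, 72.5 and 86.8 (1.84 ± 0.36, adjusted p = 0.154).

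Cyfip2, a subunit of the actin-regulating WAVE complex, led the genes that fell with the score. It had 130.3, 147, 395 and 297 against 1372, 1025, 951 and 2026, and the middle group (817 to 1948.5) lay with the lowest. Cyfip2 fell by 2.43 on the continuous score (adjusted p = 0.0106; between the groups -2.39 ± 0.37, adjusted p = 0.0886). Mt3, a metallothionein that binds zinc, had 439, 390.1, 451 and 559.6 against 1918, 2042, 1371 and 4349, and fell by 1.83 (adjusted p = 0.0442). The metallothioneins of the HIF target list, Mt1 (0.46 ± 0.62) and Mt2 (1.03 ± 0.75), did not pass, and standard errors of this size leave their direction unsettled. Besides Phex and Epas1, the rest of the 11 were Nlrc5 (-1.34), a regulator of MHC class I genes, Gimap8 (-1.25), the histone gene Macroh2a2 (-1.58), Myo18a (-1.12), Clstn1 (-1.05), Als2cl (-1.34) and the proton pump subunit Atp6v1g2 (-1.16).

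Further genes met the naming rule as lower without passing a test. Arsb, a lysosomal sulfatase, had 5198, 6209, 5864 and 4584 against 16937, 17717, 17172.5 and 19939.7 (-1.72 ± 0.32, adjusted p = 0.148). Mlip, a lamin-interacting protein abundant in muscle, had 444, 1271, 1029 and 540.0 against 2814, 2306, 2999 and 3986 (-1.94 ± 0.35). Tmem86b (4.2 to 22.0 against 51.5 to 222) and Tmem44 (7.8 to 29.6 against 63.5 to 172) were dim in all these tumours, and signals of this size were not separated from background here.

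Markers of immune cells gave 0 genes called by limma between the groups. The macrophage list had a median of 0.47 over 22 genes (0.28 without osteosarcoma 1 and 0.90 without osteosarcoma 11), with levels of 11.07 to 12.14 in the highest and 11.22 to 11.79 in the lowest group, lowest of these 8 tumours in osteosarcoma 11. Arg1, arginase 1 of alternatively activated macrophages and itself a gene that responds to HIF, had 988, 933, 139 and 267 against 79.7, 57.9, 64.1 and 35.3. It was the list's 1 gene without overlap in the higher direction and rose by 2.82 on the continuous score (adjusted p = 0.0145). Osteosarcoma 11 thus had a high Arg1 signal and a low macrophage level (11.07). Neutrophil genes (12 tested) overlapped, with a median of 0.39 that ran from 0.20 without osteosarcoma 10 to 0.71 without osteosarcoma 8. The neutrophil median changed sign with the score without Egln3 (-0.70) and for 5 tumours against 5 (-0.08). T and NK cell genes were dim, with Cd4 at 5.5 to 15.2 against 17.7 to 258.5. Their median over 11 genes was -0.51, and it was -0.88 without osteosarcoma 12 and -0.19 without osteosarcoma 11. B and plasma cell genes (3 tested, median -1.25) included Ighm, the heavy chain of IgM, which ran from 97.9 to 7648.5 over the 12 osteosarcomas with overlapping groups. That median was -1.90 without osteosarcoma 1 and -0.43 without osteosarcoma 11. Interferon response genes had a median of -0.18 over 19, and its sign turned without osteosarcoma 9 (0.045) or 11 (0.048). The sign of the interferon median also turned for 5 tumours against 5 (0.31), for 3 against 3 (0.12) and with the beta-actin covariate (0.11). With the score without Egln3 it was -0.55.

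Mature skeletal muscle genes had a median of -1.80 over 28 genes, all below 0, with 0 called by limma, 0 at an unadjusted p under 0.05 and 0 without overlap. The level was 6.54 to 10.64 in the highest and 8.57 to 12.39 in the lowest group, and the creatine kinase gene Ckm had 200.1, 9.7, 1995 and 119.5 against 13664, 498, 2045 and 172, high in osteosarcoma 9. With the identifier letter as a block the list's median was 0.47, and without osteosarcoma 9 or 11 it was -1.09 or -1.17. Adipocyte genes (6 tested) had a median of -0.81, which was -0.34 without osteosarcoma 8, -0.38 without osteosarcoma 11 and -0.16 with the identifier letter as a block. Pericyte and smooth muscle genes (13, median -0.22) stood at -0.004 without osteosarcoma 5 and -0.45 without osteosarcoma 12. The median of 3 keratinocyte genes (-0.38) changed sign without osteosarcoma 12 (0.21). Limma called 0 genes of these lists, with 0 higher and 1 lower at an unadjusted p under 0.05 in each of the adipocyte and keratinocyte lists and 0 in the pericyte list. Erythroid genes (5, median 0.10, and -0.12 without osteosarcoma 12) included Alas2, the haem synthesis enzyme of red cell precursors, at 2985, 262, 437 and 869 against 153, 238, 26.1 and 152. The erythroid median was unstable. It was -0.57 with the score without Egln3 and 1.625 with the identifier letter as a block. With only genes of a mean signal of at least 200 in the osteosarcomas it was 1.81.

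The shifts of growth and stress lists were small and depended on single tumours and on the settings of the fit. Of 28 cell cycle and mitosis genes 26 had a difference above 0 (92.9%, against 47.9% of all genes) and the median was 0.43. Without osteosarcoma 12 that median was 0.06, with the score without Egln3 0.074, and with the beta-actin ratio as a covariate 0.087. Osteosarcoma 12 had the lowest level of this list (9.05, against 10.29 to 10.75 in the highest group and 10.30 to 10.61 in the other 3 of the lowest). Ube2c, a ubiquitin-conjugating enzyme of mitosis, had 2682, 3079, 4201 and 2697 against 2714, 632, 1829.7 and 1795 (0.99 ± 0.36). The ATF4 and secretory stress list had a median of 0.21 over 26 genes (0.10 without osteosarcoma 5 and 0.37 without osteosarcoma 1) and 0 without overlap. Its median was -0.05 for 5 tumours against 5 and 0.53 with the identifier letter as a block. Ddit3, a stress transcription factor of this list, had 1639 to 2637 against 996 to 1804 (0.80 ± 0.34).

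The p53 target list, 22 genes in tumours that arose in p53+/- mice, had a median of -0.30, and 6 of its genes (27.3%) were lower without overlap, against 3.43% of all genes. The level of the p53 target list was 9.02 to 9.25 in the highest and 9.37 to 9.54 in the lowest group, and the middle group spanned 9.09 to 9.48. Perp, an apoptosis effector of the membrane, had 68.9, 67.3, 28.6 and 47.4 against 93.2, 335, 143 and 163 (-1.28 ± 0.37, adjusted p = 0.302), and the autophagy gene Trp53inp1 1251, 1217, 1129.8 and 995 against 1292, 3378, 1723 and 2037 (-0.78 ± 0.27). The cell cycle inhibitor Cdkn1a (0.20 ± 0.55) and the p53 inhibitor Mdm2 (-0.34 ± 0.31) overlapped. Limma called 0 of the 22 in either fit (between the groups 0 higher and 4 lower at an unadjusted p under 0.05).

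Immediate early genes had a median of 0.14 over 19 genes, with a wide spread, and of 0.01 without osteosarcoma 11. Fosl1, the AP-1 subunit Fra-1, had 824.1, 1011, 481 and 769 against 136.5, 74.0, 2.3 and 59.5, a difference of 3.21 ± 0.67 (adjusted p = 0.154). Ier3, an early response gene, had 2707, 8395, 3857 and 2019.9 against 833, 2496, 452 and 528 (2.07 ± 0.51). Neither gene passed in either fit. Fibroblast and interstitial matrix genes (17, median 0.10, and 0.77 with the identifier letter as a block) included the fibulin gene Fbln2, at 5933, 725, 997 and 8415 against 567.5, 497, 157 and 245. Collagen and crosslinking genes (23, -0.00) and cholesterol synthesis genes (15, 0.06) stood near the median of all genes (-0.02). The chromosome 9 block from Birc2 to Yap1 had a median of 0.53 over 15 genes, which turned to -0.23 without osteosarcoma 1, -0.30 with the identifier letter as a block, -0.20 for 3 tumours against 3 and -0.16 on the continuous score. Its level was 10.90 in osteosarcoma 1 and 8.81 to 9.18 in the other 3 tumours of the highest group, against 9.03 to 9.20 in the lowest.

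**Figure D5:**
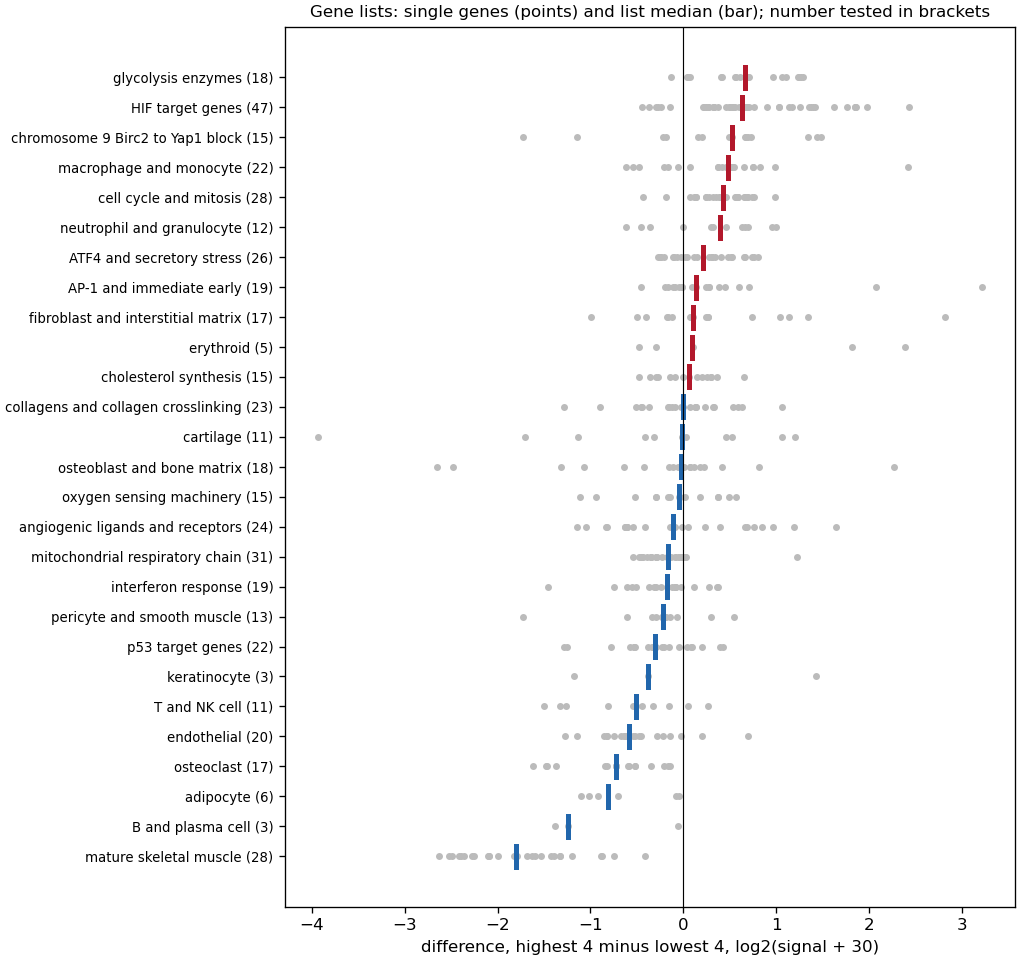
Differences between the highest and lowest groups for the tested genes of 27 lists (grey points) with the list median (bar), in log2(signal + 30); the number of genes tested stands in brackets. Glycolysis (0.66) and HIF target genes (0.63) have the highest medians, and mature skeletal muscle (-1.80) the lowest.

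The middle group was set against these genes as a description. Of 357 genes higher in the highest group without overlap, 270 (75.6%) had a middle mean between those of the other groups, as had 328 of 405 (81.0%) lower genes. The middle tumours entered neither the cut of these genes nor the difference between the groups. These genes were picked because their highest and lowest groups lay apart. A middle mean between such groups is therefore likely even for a gene unrelated to the score. No share was computed for comparison, and a graded relation to the score was not tested.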

How the data were processed

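Affymetrix arrays of 12 mouse osteosarcomas, 1 tumour labelled rhabdomyosarcoma and the mc3T3 line were used as 14 arrays. The deposited values are linear signal intensities of 45101 probe sets for which the submitters' processing notes name GCOS. Its version and background step were not given in the sources used here. Each array, judging by its values, had been scaled by the authors to a trimmed mean of 500. Rescaling here, with 2% of values trimmed at each end, kept that target. Probe sets were named by the platform annotation, with 34741 symbols updated through Entrez numbers on GRCm38.p6; 34945 had 1 symbol, 932 had several genes, 9160 had none and 64 were controls. Those with several genes or none were not used. No pair of the 14 columns held the same values, and the highest correlation between arrays was 0.954.

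A gene is its brightest probe set among those with a signal of 200 or more on at least 1 array. The 11811 genes besides the 4 of the score were fitted on log2(signal + 30) with limma 3.58.1 in R 4.3.3 (lmFit, eBayes), with the highest, middle and lowest osteosarcomas as groups, giving 9 residual and 3.72 prior degrees of freedom. A call is a Benjamini-Hochberg adjusted p under 0.05 over all genes and a difference of at least 1, two-sided. Simulated data held 200 changed genes, split evenly between changes of 1, 2, 3 and 4 in the highest group. Noise was drawn for each gene independently. The changes of 1, 2, 3 and 4 were recovered in 16%, 82%, 88% and 98% of their genes, with 6 false calls over all genes. Many changed genes at once ease the Benjamini-Hochberg threshold, and genes of tumours vary together, so these shares need not hold for the tumours. In the tumours 2 genes were called, Moxd1 (4.26) and Scara5 (3.13). Ndufa4l2 (3.69), Col2a1 (-3.93) and Cyfip2 (-2.39) were not called. The share of changes recovered in the tumours themselves was not tested, and a gene without a call may still differ. No p-value was computed over a gene list.

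The score genes, the groups and the 27 gene lists (553 members, 488 tested, 35 without a named probe set) were chosen with earlier results of these data known. Genes were named by a rule: up to 12 called genes per direction, filled with those of smallest p among genes with a difference of at least 1 and no overlap; up to 6 members of the hypoxia, vessel and stress lists and up to 3 of every other list, by size of difference; and 12 hypoxia genes whatever their values. Genes of the continuous score and a few list members shown beside them were chosen after their values were seen. Alternatives covered the score, the group size, scaling, pseudocount, filter, probe set choice, added terms and each tumour left out.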

Additional observations from a re-analysis of the deposited data

Results flagged for a closer look

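Among the 4 tumours of each group, 8 of 252 sets of values (126 named genes in 2 groups, 3.17%) had 1 tumour that stood apart from the other 3 by more than Dixon's critical value for 4 samples allows, on the log2(signal + 30) scale, where chance gives about 1 in 20. In the highest group, the osteoblast gene Gdpd2 stood out as high in osteosarcoma 1 (254.3, against 35.6 to 50.0 in the others), the macrophage receptor gene Fcgr3 as low in osteosarcoma 11 (1374.8, against 3970.0 to 4691) and the dim Tmem86b as high in osteosarcoma 5 (22.0, against 4.2 to 5.3). In the lowest group, the hexokinase gene Hk2 stood out as high in the muscle-rich osteosarcoma 9 (1429, against 771 to 820.4) and the collagenase gene Mmp8 as high in osteosarcoma 8 (122, against 36.7 to 45.7). The haem oxygenase gene Hmox1 (337.3, against 553 to 589) and the ubiquitin ligase gene Siah2 (185.9, against 251 to 265) stood out as low in osteosarcoma 10, and Car9 as low in osteosarcoma 12 (57.0, against 136 to 154). Osteosarcoma 10 thus held 2 of the 8 values and osteosarcoma 3 held 0.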

How the results depend on the processing

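The score groups gave 2 genes called higher and 0 lower. With the 8 tumours of both groups alone there were 4 and 3, on the continuous score 27 and 11, and with array quality weights 30 and 18. The count of higher genes was 1 for 3 tumours against 3 and with the beta-actin covariate, and 0 for 5 against 5, with a pseudocount of 10, with the muscle covariate and without osteosarcomas 6 and 9, an alternative chosen after seeing the data. A score without Egln3 gave 1 lower gene. Leaving out 1 tumour gave 0 to 4 higher and 0 to 2 lower genes, and in the continuous fit, also added after seeing the data, 0 to 30 higher and 0 to 13 lower. The cause of these changes was not tested. Moxd1 passed under 20 of 32 alternatives (adjusted p from 0.00233 to 0.264) and Scara5 under 15 (0.004 to 0.35). Both counts include the scores without Adm, Ndrg1 or Slc2a1 and the deposited signal. Those settings repeated the values of the main fit and add nothing to it.

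The HIF target median (0.63) ran from 0.497 to 0.892, the latter with the beta-actin covariate, and the glycolysis median (0.66) from 0.473 to 0.868. Over 27 lists, 846 medians moved by less than the spread between tumours and 18 by more. The 846 include settings that left every difference between the groups as it was. These were the scores without Adm, Ndrg1 or Slc2a1, the deposited signal, the 8 tumours alone and the fits without a middle tumour. Their medians do not speak for stability, and the same settings enter the counts of named genes. Under all alternatives, 3904 differences of named genes kept their direction and their side of the threshold. Another 55 came to pass, 29 no longer passed and 23 changed sign, the last all in genes that were not called. Xaf1 changed sign on the continuous score (0.05), at 5 against 5 (0.09), with the mean of probe sets (0.13) and with the beta-actin covariate (0.23). Cd79b did so at 5 against 5 (0.28) and under quantile normalization (0.01), and Tmem86b with no filter (0.48). Without Egln3 in the score, S100a9 stood at -0.62, Mmp8 at -0.12 and Krt10 at 0.32. With the beta-actin covariate, Krt10 stood at 0.28, Hapln1 at -0.21, Higd1b at 0.36 and Klf1 at 0.09, Klf1 also at 0.06 with the muscle covariate. With the identifier letter as a block, Tnnt3 stood at 0.45 and Klf1 at 0.21. Leaving out 1 tumour took Cd79b from -0.28 to 0.14, Cnn1 from -0.19 to 1.06 and Krt10 from -0.68 to 0.21.

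No paired analysis was made, since the groups hold different tumours and the labels give no link between them. With 4 tumours a group, changes of 1 on the log2 scale were mostly not recovered in simulated data. Some larger differences were not called in the tumours either. Dim probe sets carry background signal.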

Other observations

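The arrays outside the groups were read in the same way. In mc3T3 the mean level was 9.22 for the HIF target list and 10.66 for the glycolysis list, in log2(signal + 30), and in the tumour labelled rhabdomyosarcoma it was 9.99 and 11.01. The HIF target level of mc3T3 lay below all 12 osteosarcomas, and its Moxd1 signal was 6.3, against 717 in the tumour labelled rhabdomyosarcoma. Each is 1 array, with no replicate.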
